A study of Mus musculus with 15 samples.

Results

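The genes described here make cholesterol or move it into and out of intestinal cells, and were measured in 2D monolayers of mouse duodenal organoids. The set holds 30 genes chosen by name, in 3 roles. There are 19 of cholesterol synthesis, 5 of SREBP control and sterol transport, and 6 of uptake, esterification and efflux. A gene was taken as measured where a probe set of the array named that gene alone, and 28 of the 30 were, among 18820 genes in all. Acat2, which condenses acetyl-CoA at the head of the pathway, and Soat2, which esterifies cholesterol in enterocytes, had no such probe set. The 28 measured genes are 18, 5 and 5 in the 3 roles.

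The organoids came from the duodenum of female C57BL/6J mice aged 9 weeks. Their monolayers were exposed for 6 h to casein (CAS), soybean meal (SBM), spray dried plasma protein (SDPP) or yellow meal worm (YMW), each labelled as 4% (w/v), or to culture medium without added protein, which the labels name the media blank and which is called the medium control (MC) here. The methods of the study also give a protein concentration for the soluble extract that is not equal to that percentage, and the difference was not resolved. Each group had 3 arrays, so that there were 12 treated arrays and 3 MC arrays, and each array held the pooled RNA of several culture wells. The proteins were not digested before exposure, and the monolayers hold epithelium with no blood or lymph supply. The methods name 3 mice as the origin of the organoids, but no label ties an array to a mouse, so that the p-values measure the spread between these cultures.

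Cells make cholesterol from acetyl-CoA through mevalonate, squalene and lanosterol. SREBP2, the product of Srebf2, is held in the endoplasmic reticulum by SCAP and INSIG proteins when sterol is plentiful, and when sterol is scarce it travels to the Golgi, is cut and switches on the synthesis genes, which therefore tend to move together. The enterocyte also takes cholesterol from the gut lumen through NPC1L1 at its brush border and returns sterol to the lumen through the paired transporter ABCG5 and ABCG8. LXR, a receptor for oxidised sterols whose alpha form is encoded by Nr1h3, switches on Abcg5, Abcg8 and Abca1.

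Because synthesis genes are known to share control through their promoters, the short stretches below show where a motif lies in those on which the results turn. They are 60 bases each from the 250 bases before a RefSeq start site of the build GRCm38.p6, written 5′ to 3′ on the strand of the gene. Of the 30 genes, 25 matched an entry, and Fdps, Fdft1, Sqle, Stard4 and Soat2 did not. The capitals in the first stretch mark the core of a sterol regulatory element, TCACNCCAC, where N is any base. In the other stretches they mark the last box bound by NF-Y before the start, CCAAT, which reads ATTGG on the opposite strand. An earlier CCAAT in the stretch of Mvk is not marked.
Hmgcs1, chr13:119690189-119690248, + strand: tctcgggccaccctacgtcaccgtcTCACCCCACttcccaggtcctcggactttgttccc
Mvk, chr5:114444209-114444268, + strand: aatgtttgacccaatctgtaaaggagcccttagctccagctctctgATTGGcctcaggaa
Lss, chr10:76531516-76531575, + strand: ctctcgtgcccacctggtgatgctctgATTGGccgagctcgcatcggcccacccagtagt
Cyp51, chr5:4104698-4104757, − strand: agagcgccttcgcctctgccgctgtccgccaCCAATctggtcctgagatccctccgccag
Msmo1, chr8:64733601-64733660, − strand: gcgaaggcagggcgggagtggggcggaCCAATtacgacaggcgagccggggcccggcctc
Hsd17b7, chr1:169969206-169969265, − strand: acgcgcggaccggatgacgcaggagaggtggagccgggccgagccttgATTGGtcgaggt
Insig1, chr5:28071169-28071228, + strand: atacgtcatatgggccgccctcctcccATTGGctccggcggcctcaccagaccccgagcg
Npc1l1, chr11:6230246-6230305, − strand: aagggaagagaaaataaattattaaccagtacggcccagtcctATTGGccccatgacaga
Abcg8, chr17:84682980-84683039, + strand: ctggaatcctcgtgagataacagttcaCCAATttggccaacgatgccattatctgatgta

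In the full windows, from 250 bases before to 50 bases after the start and read on both strands, the CCAAT box stood in 15 of 16 synthesis genes, 3 of 4 SREBP control genes and 3 of 5 uptake and efflux genes. Over all 27025 genes with an entry it stood in 41.1%, and over those above background on the array in 42.3%. Among the uptake and efflux genes it stood in Npc1l1, Abcg5 and Abcg8. The stretch printed for Abcg8 covers the bound of the annotated Abcg5 with the higher coordinate, 84683011, so that the same box may be counted for both. The GGGCGG box of Sp1 stood in 14 of 16, 4 of 4 and 1 of 5, against 38.2% of all genes and 66.1% of those above background. The CACGTG box stood in 3 of 16, 2 of 4 and 1 of 5, against 8.09% of all genes and 11.3% of those above background. The sterol element core was met once, in Hmgcs1, and in 1.44% of all genes and 1.46% of those above background. These matches describe letters, and binding was not measured.

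The 3 MC arrays were not alike, and every comparison with MC rests on them. A treated range here is the span of a gene over the 12 treated arrays. MC replicate 1 lay within that range for 26 of the 28 genes. MC replicate 2 lay above it for 24 genes and below it for 3, and MC replicate 3 lay above it for 24 and below it for 2. For the 18 synthesis genes, MC replicates 2 and 3 each lay above it for 17. Over the 12879 genes above background, MC replicate 2 lay above the treated range for 18.8% and below it for 23%, MC replicate 3 for 23% and 27.9%, and MC replicate 1 lay within it for 83.3%. Background was set where 95% of smell and pheromone receptor genes lie below, at 3.91 (log2), and of the 28 genes Abca1 alone had a mean under it.

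Markers of several cell states, though not of all, moved with the same arrays. The mean of the 12 enterocyte markers was 8.60 to 10.4 (log2) over the treated arrays, against 8.83, 10.8 and 10.8 in MC replicates 1, 2 and 3. Not every marker followed that mean, as Anpep had 8.09 to 9.98 over the treated arrays, against 8.29, 8.91 and 9.11 in MC. The mean of the 8 stem cell markers was 8.63 to 9.08 over the treated arrays, against 8.93, 8.12 and 7.53 in MC, and that of the 8 markers of cycling cells 8.67 to 9.08, against 9.02, 8.14 and 7.61. The mean of the goblet cell list was 10.18 to 10.48, against 10.32, 10.73 and 10.92 in MC, but its markers differed. Clca1, Tff3 and Zg16 lay above the treated range in MC replicates 2 and 3. Agr2 had 10.80 to 11.05 over the treated arrays, against 10.98, 10.43 and 10.45 in MC. Muc2 had 8.77 to 9.52, against 9.49, 9.06 and 9.28. The mean of the Paneth cell list was 10.34 to 10.62, against 10.58, 10.03 and 9.99 in MC. The enteroendocrine and tuft cell means lay within the treated range in all MC arrays, but their markers differed too. The enteroendocrine Tac1 lay below the treated range in MC replicates 2 and 3, Cck above it in MC replicate 3 and Chga below it in MC replicate 1. Of the tuft cell markers, Trpm5 lay above it in MC replicates 2 and 3, Avil below it in MC replicate 2 and Pou2f3 below it in all MC arrays. The other measured markers of these lists lay within it in all MC arrays. Of the measured markers of leukocytes, stroma and endothelium, 3 of 5, 5 of 6 and 1 of 5 were above background. Ptprc and Itgax of leukocytes, Pdgfra of stroma and Pecam1, Cdh5, Kdr and Tek of endothelium were not. Above it were Cd3e at a mean of 3.98 (log2), Cd68 at 6.12 and Lyz2 at 6.39, the stromal Col1a1, Col1a2, Col3a1, Vim and Acta2 at 4.02 to 5.26, and Vwf at 4.72. The mean of the leukocyte list was 4.60 to 4.86 over the treated arrays, against 4.82, 4.59 and 4.51 in MC, that of the stromal list 4.53 to 4.75, against 4.76, 4.59 and 4.78, and that of the endothelial list 3.82 to 4.02, against 3.99, 3.91 and 3.85. The part of these markers in the results was not tested. In RNA from whole monolayers, fewer cells of a type and less RNA per cell cannot be told apart.

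**Figure D1:**
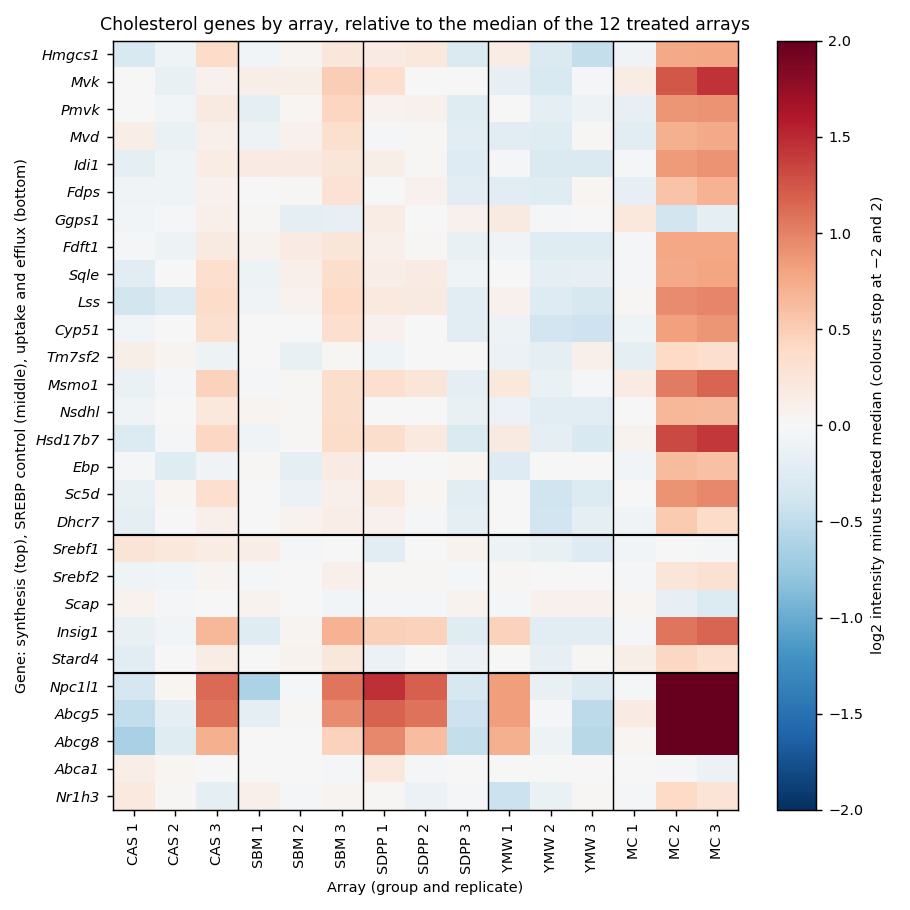
Heat map of the 28 genes (rows, by role) in the 15 arrays (columns, by group and replicate), as log2 intensity minus the median of the 12 treated arrays. MC replicates 2 and 3 stand above the treated arrays for 24 genes each, while MC replicate 1 lies within the treated range for 26.

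Mvk, Msmo1 and Hsd17b7 of the synthesis pathway were lower with each of the 4 protein sources than in MC, and Abcg5 and Abcg8 of sterol export with 3 of them. No gene of the set was higher past the threshold with any source, where 1.82%, 1.37%, 1.13% and 1.74% of all genes were with CAS, SBM, SDPP and YMW. The threshold is that of the study, an unadjusted p under 0.05 with a change of at least 1.5-fold, in a linear model of all arrays (limma). With CAS 7 of 28 genes passed it, all lower, against 2.04% of all genes called lower. With SBM 7 passed, against 2.14%. With SDPP 6 passed, against 0.499%. With YMW 16 passed, against 2.13%. The median log2 fold change of the 28 genes was −0.48, −0.38, −0.49 and −0.63 with the sources in that order, where the median over all genes lay between −0.01 and 0.02. The 4 comparisons share the same 3 MC arrays.

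After Benjamini-Hochberg adjustment over all 18820 genes, none of the 28 passed with any single source in limma, where 19, 9, 16 and 22 had an unadjusted p under 0.05 with CAS, SBM, SDPP and YMW, against 16.5%, 18.2%, 12% and 19% of all genes. The share of all genes past adjustment was 0.654%, 0.00531%, 0% and 0.00531% in that order. With the mean of the 4 sources against MC, 10 genes passed the threshold of the study, all lower, against 1.9% of all genes called lower. Of these Mvk had an adjusted p of 0.0429 in limma, and 1.52% of all genes had one under 0.05. When each of the 15 arrays was left out in turn, that adjusted p in limma was 3.72e-06 without MC replicate 1 and up to 0.410 without MC replicate 3, and it was 0.05 or more in 13 of the 15 cases. The calls depended on which MC arrays were used. Without MC replicate 1, 19, 17, 19 and 20 genes passed with CAS, SBM, SDPP and YMW, where 9.08%, 9.4%, 7.33% and 9.53% of all genes did. Without MC replicate 2, 3, 0, 1 and 7 passed, against 1.92%, 1.38%, 0.755% and 1.76% of all genes. Without MC replicate 3 the counts were 2, 0, 1 and 6, against 1.26%, 0.723%, 0.452% and 1.13%. Of the treated arrays, leaving out CAS replicate 1 or 3 gave 3 or 12 with CAS, SBM replicate 1 or 2 gave 4 or 3 with SBM, and SDPP replicate 3 gave 1 with SDPP. The share of all genes is not given beside these counts. They show only that the calls also depended on which treated arrays were used. With MC replicate 1 as the only control, a comparison chosen after the data had been seen, 0 passed with each source, where 0.834%, 0.611%, 0.744% and 0.494% of all genes did, so that the count of 0 does not set these genes apart.

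**Figure D2:**
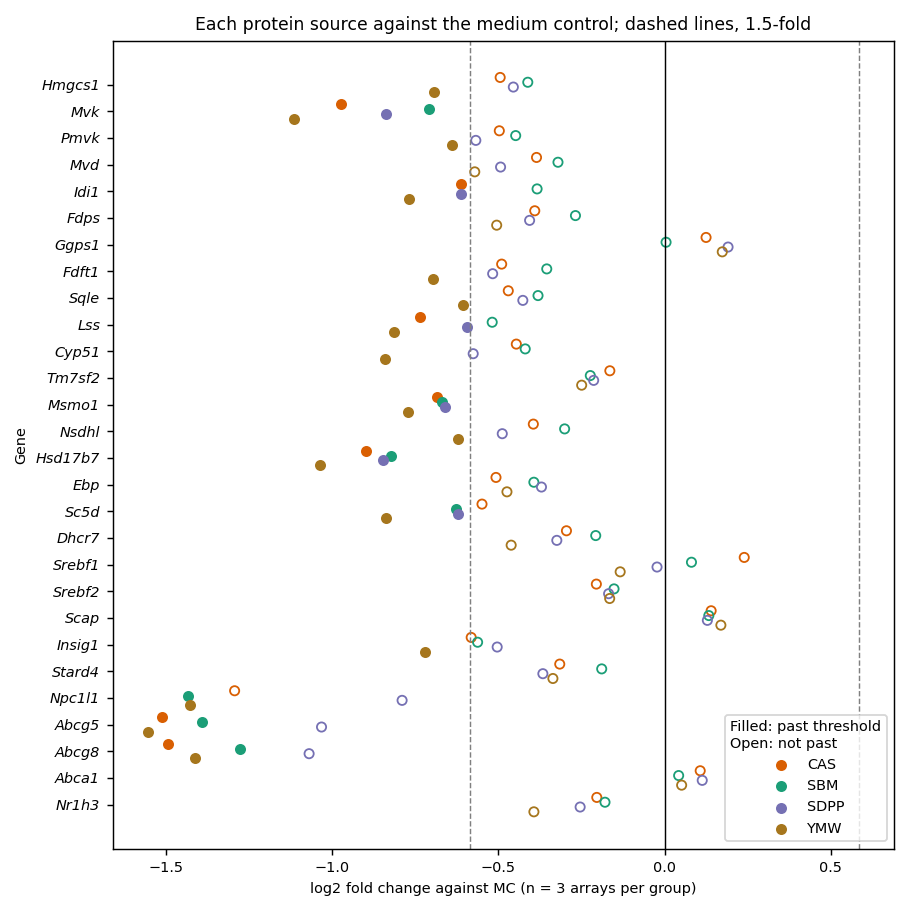
The log2 fold change against MC of each of the 28 genes (rows) for CAS, SBM, SDPP and YMW (colours), filled where the gene passed the threshold of the study. Filled points all lie left of the lower dashed line, and YMW has 16 of them.

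The mevalonate part of the pathway begins with Hmgcs1, which makes HMG-CoA from acetyl-CoA units. Hmgcs1 had log2 values of 10.33, 10.55 and 10.99 with CAS, 10.58, 10.69 and 10.86 with SBM, 10.80, 10.84 and 10.35 with SDPP and 10.78, 10.34 and 10.16 with YMW, against 10.56, 11.38 and 11.41 in MC. Its values overlapped those of MC with every source through MC replicate 1. It fell by 0.69 (SE 0.23) with YMW and had log2 fold changes of −0.41 to −0.49 with the other 3, which did not pass.

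Mvk, the kinase that phosphorylates mevalonate, changed most among the synthesis genes with CAS and YMW. It had 7.60, 7.46 and 7.70 with CAS, 7.73, 7.73 and 8.09 with SBM, 7.94, 7.62 and 7.60 with SDPP and 7.44, 7.30 and 7.58 with YMW, against 7.76, 8.85 and 9.06 in MC. All CAS and all YMW arrays lay below all MC arrays, while SBM and SDPP each had an array above MC replicate 1. It fell, with log2 fold changes of −0.97, −0.71, −0.84 and −1.12 (SE 0.25 each) with CAS, SBM, SDPP and YMW, and with the mean of the 4 it fell by 0.91 (SE 0.19). With MC replicate 1 as the only control that last value was −0.11. The SD of Mvk was 0.70 in MC and 0.12 to 0.21 in the sources, while the SE rests on a spread pooled over all groups.

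Pmvk and Idi1 act next, the first adding a further phosphate and the other turning isopentenyl into dimethylallyl diphosphate. Pmvk had 8.58, 8.53 and 8.76 with CAS, 8.40, 8.61 and 9.00 with SBM, 8.65, 8.66 and 8.34 with SDPP and 8.58, 8.38 and 8.48 with YMW, against 8.41, 9.46 and 9.48 in MC. Idi1 had 9.57, 9.66 and 9.89 with CAS, 9.91, 9.91 and 9.98 with SBM, 9.86, 9.77 and 9.49 with SDPP and 9.72, 9.46 and 9.45 with YMW, against 9.71, 10.59 and 10.64 in MC. MC replicate 1 lay among the treated arrays for both, and no source was free of overlap. Pmvk fell with YMW alone, by 0.64 (SE 0.23). Idi1 fell, with log2 fold changes of −0.61, −0.61 and −0.77 (SE 0.19 each) with CAS, SDPP and YMW and had −0.38 with SBM.

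Fdft1 joins farnesyl diphosphate into squalene, Sqle adds the epoxide, and Lss closes the rings to lanosterol. Fdft1 had 10.46, 10.39 and 10.67 with CAS, 10.56, 10.64 and 10.72 with SBM, 10.58, 10.51 and 10.34 with SDPP and 10.41, 10.25 and 10.24 with YMW, against 10.46, 11.26 and 11.27 in MC. All YMW arrays lay below all MC arrays, by a small margin at MC replicate 1. Sqle had 9.50, 9.71 and 10.06 with CAS, 9.63, 9.83 and 10.07 with SBM, 9.86, 9.89 and 9.64 with SDPP and 9.74, 9.54 and 9.57 with YMW, against 9.68, 10.48 and 10.51 in MC. Lss had 9.55, 9.67 and 10.29 with CAS, 9.86, 9.99 and 10.32 with SBM, 10.12, 10.11 and 9.71 with SDPP and 10.01, 9.66 and 9.60 with YMW, against 9.95, 10.87 and 10.90 in MC. Both overlapped MC with every source. Fdft1 fell by 0.70 (SE 0.16) with YMW alone, and so did Sqle, with −0.61 (SE 0.20). Lss fell, with log2 fold changes of −0.74, −0.60 and −0.81 (SE 0.24 each) with CAS, SDPP and YMW and had −0.52 with SBM.

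The lanosterol product is then trimmed and rearranged, first by Cyp51, which removes its 14-alpha methyl group. Cyp51 had 9.98, 10.02 and 10.35 with CAS, 10.04, 10.03 and 10.37 with SBM, 10.11, 10.04 and 9.81 with SDPP and 9.92, 9.64 and 9.61 with YMW, against 9.94, 10.84 and 10.92 in MC. All YMW arrays lay below all MC arrays, and the other sources did not separate from MC. Cyp51 fell by 0.84 (SE 0.21) with YMW and had −0.45, −0.42 and −0.58 with CAS, SBM and SDPP.

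Msmo1, Nsdhl and Hsd17b7 remove the methyl groups at carbon 4. Msmo1, the synthesis gene with the highest mean, had 10.54, 10.65 and 11.14 with CAS, 10.66, 10.70 and 11.02 with SBM, 11.01, 10.93 and 10.48 with SDPP and 10.89, 10.55 and 10.64 with YMW, against 10.84, 11.71 and 11.85 in MC. Hsd17b7 had 9.08, 9.32 and 9.76 with CAS, 9.29, 9.39 and 9.72 with SBM, 9.70, 9.56 and 9.06 with SDPP and 9.54, 9.16 and 9.06 with YMW, against 9.43, 10.67 and 10.76 in MC. These and Mvk were the 3 genes that fell with all 4 sources. Msmo1 fell, with log2 fold changes of −0.68, −0.67, −0.66 and −0.77 (SE 0.23 each) with CAS, SBM, SDPP and YMW, and so did Hsd17b7 with −0.90, −0.82, −0.85 and −1.04 (SE 0.295 each). Nsdhl had 9.73, 9.80 and 9.998 with CAS, 9.84, 9.82 and 10.14 with SBM, 9.79, 9.81 and 9.65 with SDPP and 9.68, 9.58 and 9.59 with YMW, against 9.81, 10.46 and 10.43 in MC. Its SDPP and YMW arrays all lay below all MC arrays, and it fell by 0.62 (SE 0.15) with YMW alone.

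Sc5d, which places the double bond at carbon 5, had 9.67, 9.86 and 10.16 with CAS, 9.81, 9.71 and 9.93 with SBM, 10.03, 9.86 and 9.59 with SDPP and 9.84, 9.43 and 9.55 with YMW, against 9.82, 10.73 and 10.79 in MC. MC replicate 1 lay within each source, and Sc5d fell, with log2 fold changes of −0.63, −0.62 and −0.84 (SE 0.21 each) with SBM, SDPP and YMW and had −0.55 with CAS. Of the 6 synthesis genes that passed with no source, Mvd, Fdps, Ebp, Dhcr7 and Tm7sf2 had negative log2 fold changes with every source, from −0.57 for Mvd with YMW to −0.16 for Tm7sf2 with CAS. Ggps1, which makes geranylgeranyl diphosphate for protein prenylation on a branch off the sterol route, had 0.00 to 0.19. Ggps1 was the exception in MC as well, where replicate 2 lay below the treated range and replicate 1 above it. Of 12 listed genes of isoprenoid branches 10 were measured, such as those of dolichol, ubiquinone and protein prenylation. None of them passed with any source, and their median log2 fold change with the mean of the 4 sources was −0.02. Coq2 of ubiquinone synthesis had 0.32 there (SE 0.07, adjusted p = 0.0474 in limma), under 1.5-fold.

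**Figure D3:**
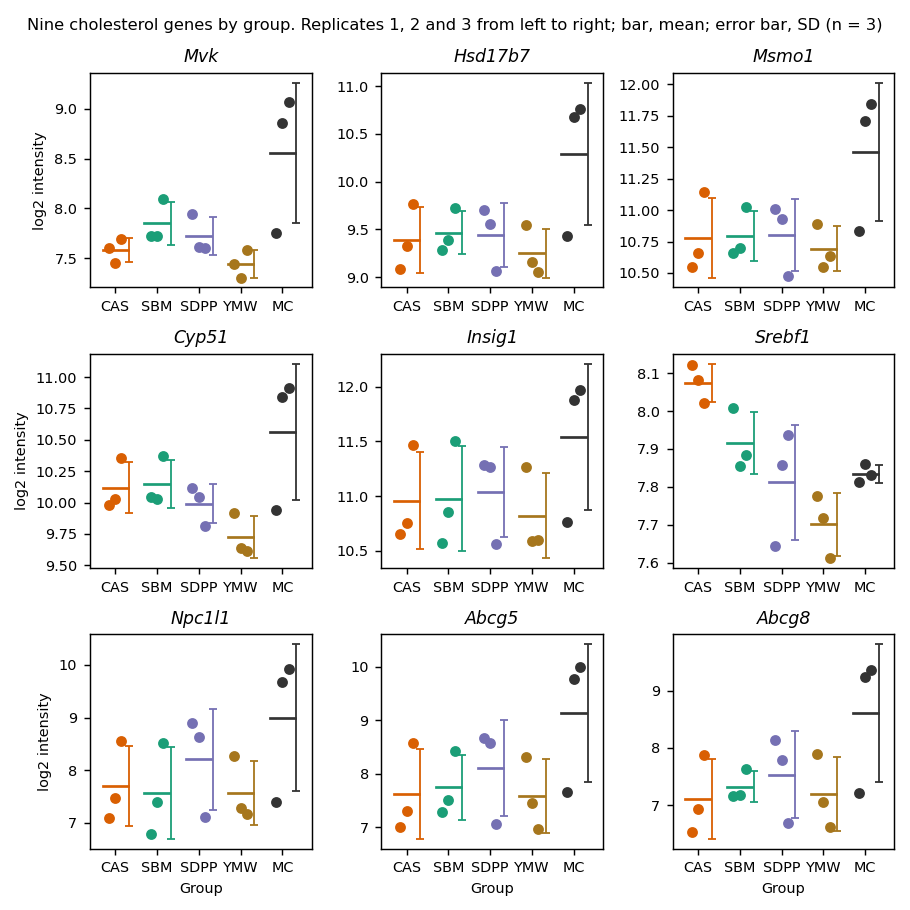
Log2 intensity of 9 genes in each array, by group, with the mean (bar) and SD (error bar, n = 3). MC replicate 1 lies within the range of the treated arrays for all 9 genes, and for Srebf1 the 3 MC arrays lie together between CAS and YMW.

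Among the genes of SREBP control, Insig1 fell with YMW alone and the others did not pass with any source. INSIG1 retains SCAP and SREBP in the endoplasmic reticulum and its gene is itself a SREBP target. Insig1 had 10.65, 10.76 and 11.46 with CAS, 10.57, 10.86 and 11.51 with SBM, 11.28, 11.27 and 10.56 with SDPP and 11.27, 10.59 and 10.60 with YMW, against 10.77, 11.88 and 11.97 in MC. Each source had arrays on both sides of MC replicate 1. Insig1 fell by 0.72 (SE 0.34) with YMW and had −0.58, −0.56 and −0.50 with CAS, SBM and SDPP.

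Srebf1, whose SREBP1 protein governs fatty acid synthesis, differed from the rest in its pattern and is given by array for that reason, chosen after its values were seen. It had 8.12, 8.08 and 8.02 with CAS, 8.01, 7.86 and 7.88 with SBM, 7.64, 7.86 and 7.94 with SDPP and 7.77, 7.72 and 7.61 with YMW, against 7.81, 7.86 and 7.83 in MC. The 3 MC arrays lay within 0.05 of each other, all CAS arrays lay above them and all YMW arrays below them. Its log2 fold changes against MC were 0.24 (SE 0.09) with CAS and −0.13 (SE 0.09) with YMW, both under 1.5-fold. Srebf2 had −0.15 to −0.21 with the 4 sources, Scap, the escort of SREBP, had 0.13 to 0.17, and Stard4, a carrier of cholesterol in the cytosol, had −0.19 to −0.37. For Stard4 all SDPP and all YMW arrays lay below all MC arrays.

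In all, arrays of a source and of MC did not overlap for 2 of the 28 genes with CAS, for 0 with SBM, for 2 with SDPP and for 6 with YMW. Over all genes 13.2%, 13.9%, 10.8% and 14.5% did not overlap in the same order, so that the share among these genes was below it with CAS, SBM and SDPP.

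Of the 5 genes of uptake and efflux, Npc1l1, Abcg5 and Abcg8 had the 3 largest log2 fold changes of the set with CAS, SBM and YMW, while Nr1h3 and Abca1 did not pass with any source. Npc1l1, the importer that is blocked by ezetimibe, had 7.09, 7.46 and 8.56 with CAS, 6.79, 7.40 and 8.51 with SBM, 8.89, 8.62 and 7.11 with SDPP and 8.27, 7.27 and 7.16 with YMW, against 7.39, 9.67 and 9.93 in MC. MC replicate 1 lay below 7 of the 12 treated arrays, and the other MC arrays lay above all of them. Npc1l1 fell, with log2 fold changes of −1.43 with SBM and −1.43 with YMW (SE 0.66 each), and had −1.29 with CAS and −0.79 with SDPP.

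Abcg5 and Abcg8 encode the parts of the sterol exporter and are neighbours that overlap in the RefSeq annotation, and each had a probe set of its own. Abcg5 had 6.99, 7.30 and 8.57 with CAS, 7.29, 7.51 and 8.43 with SBM, 8.67, 8.57 and 7.07 with SDPP and 8.32, 7.46 and 6.96 with YMW, against 7.66, 9.76 and 9.99 in MC. Abcg8 had 6.53, 6.93 and 7.88 with CAS, 7.16, 7.18 and 7.64 with SBM, 8.13, 7.78 and 6.69 with SDPP and 7.89, 7.07 and 6.62 with YMW, against 7.21, 9.23 and 9.37 in MC. Both were placed like Npc1l1, with MC replicate 1 inside the treated range. Abcg5 fell, with log2 fold changes of −1.51, −1.39 and −1.55 (SE 0.61 each), and so did Abcg8 with −1.49, −1.28 and −1.41 (SE 0.53 each) with CAS, SBM and YMW. With SDPP they had −1.03 and −1.07, which did not pass.

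Nr1h3 had log2 fold changes of −0.18 to −0.39 with the 4 sources. Abca1, the exporter to apolipoprotein A-I, was under background in the mean, so that its 0.04 to 0.11 carries no direction. The members that fell in this role were thus an importer and both parts of an exporter. The role as a whole had a median log2 fold change of −1.29, −1.28, −0.79 and −1.41 with CAS, SBM, SDPP and YMW, and the synthesis role had −0.49, −0.39, −0.51 and −0.67.

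From a list of other genes counted here as LXR targets, 4 of 7 were measured. Their control by LXR in these mouse cultures was not tested. Smpdl3a, a phosphodiesterase, fell with CAS, SBM and YMW, by log2 fold changes of −0.81, −0.86 and −0.85 (SE 0.35 each), and the other 3 did not pass with any source. Of 20 other genes of sterol handling 17 were measured. Lipa, the lysosomal lipase that frees cholesterol from its esters, fell with CAS, SBM and YMW, by log2 fold changes of −1.08, −1.17 and −1.17 (SE 0.50 each), and the other 16 did not pass. In both genes MC replicate 1 lay inside the treated range and the other MC arrays above it.

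The mean of the 18 synthesis genes less that of the 5 uptake and efflux genes was set out by array. The 5 mix an importer, both parts of an exporter, a receptor and Abca1, which was under background. The difference is therefore not a measure of sterol made against sterol moved. This difference was 2.33 to 3.11 (log2) over the 12 treated arrays, against 2.91, 2.33 and 2.29 in MC replicates 1, 2 and 3. MC replicate 2 was thus at the low end and MC replicate 3 below it, and MC replicate 1 was inside. The synthesis mean was 9.02 to 9.51 over the treated arrays, against 9.23, 9.996 and 10.04 in MC, and the uptake and efflux mean was 6.02 to 7.05, against 6.32, 7.67 and 7.76.

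Within the treated arrays, which need no MC array, Npc1l1, Abcg5 and Abcg8 split in a way that crossed the sources, and Abca1 and Nr1h3 did not. CAS replicate 3, SBM replicate 3, SDPP replicates 1 and 2 and YMW replicate 1 were the 5 highest treated arrays for those 3 genes. The lowest of the 5 was 8.27 and the next array below was 7.46 for Npc1l1. For Abcg5 these were 8.32 and 7.51, and for Abcg8 7.64 and 7.18. These 5 arrays, taken from the order of Npc1l1, were the highest for 545 of all 18820 genes (2.9%) and for 537 of the 12879 above background (4.17%). They were the highest for 9 of the 28 genes, among which Npc1l1 counts by construction. The others were Abcg5, Abcg8, Insig1, Srebf2, Hmgcs1, Lss, Msmo1 and Hsd17b7. Insig1 also had a wide step, 11.27 against 10.86, while for Hmgcs1, Lss and Srebf2 it was under 0.10. The mean of the enterocyte markers was 9.70 to 10.40 in those 5 arrays and 8.60 to 9.05 in the other 7. The part of the enterocyte markers in this order was not tested.

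Of the 18 synthesis genes 4 had the same 5 highest arrays, and the synthesis mean shared 4 of those 5 arrays. SBM replicate 3 was the highest treated array for 12 of the 18 and CAS replicate 3 for 4, and a YMW array was the lowest for 13. The SD between arrays of the same source was 0.10 to 0.30 for the synthesis genes, with a median of 0.17 (log2), against 0.81 for Npc1l1, 0.77 for Abcg5, 0.62 for Abcg8 and 0.43 for Insig1.

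**Figure D4:**
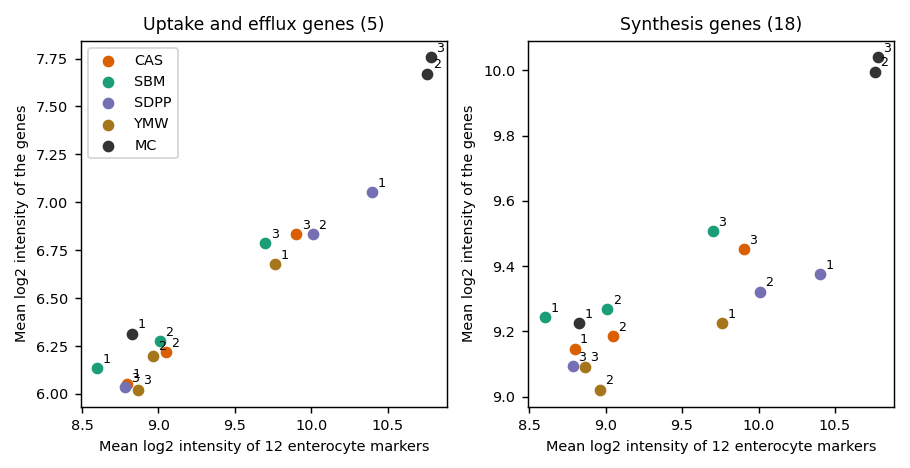
Mean log2 intensity of the 5 uptake and efflux genes (left) and of the 18 synthesis genes (right) in each array, against the mean of 12 enterocyte markers, with the replicate number beside each point. The 5 treated arrays with an enterocyte mean of 9.70 or more also have the 5 highest uptake and efflux means among treated arrays.

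When each source was set against the other 3, none of the 28 genes passed the threshold of the study, against 0.159%, 0.0266%, 0.0159% and 0.0691% of all genes with CAS, SBM, SDPP and YMW. In limma, 1, 0, 0 and 2 genes had an unadjusted p under 0.05 in that order, against 5.36%, 4.83%, 2.42% and 5.5% of all genes. None had an adjusted p under 0.05, against 0.106%, 0.00531%, 0% and 0% of all genes. That 16 genes passed against MC with YMW and 7, 7 and 6 with the other sources is therefore not shown to be a difference between sources.

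YMW had lower values than the mean of the other 3 sources for 25 of the 28 genes, with a median of −0.18 (log2) beside 0.02 over all genes. Cyp51 had −0.36 (SE 0.17, 95% interval −0.72 to −0.0016), with unadjusted p = 0.0491 and adjusted p = 0.905 in limma. For Mvk the difference was −0.28 with an interval of −0.70 to 0.15, for Hsd17b7 −0.18 (−0.70 to 0.34) and for Insig1 −0.17 (−0.76 to 0.42). For Npc1l1 it was −0.26 with an interval of −1.41 to 0.89, so that changes of over 1.5-fold in either direction lie inside it. SBM had a median of 0.10, SDPP of 0.03 and CAS of 0.01.

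**Figure D5:**
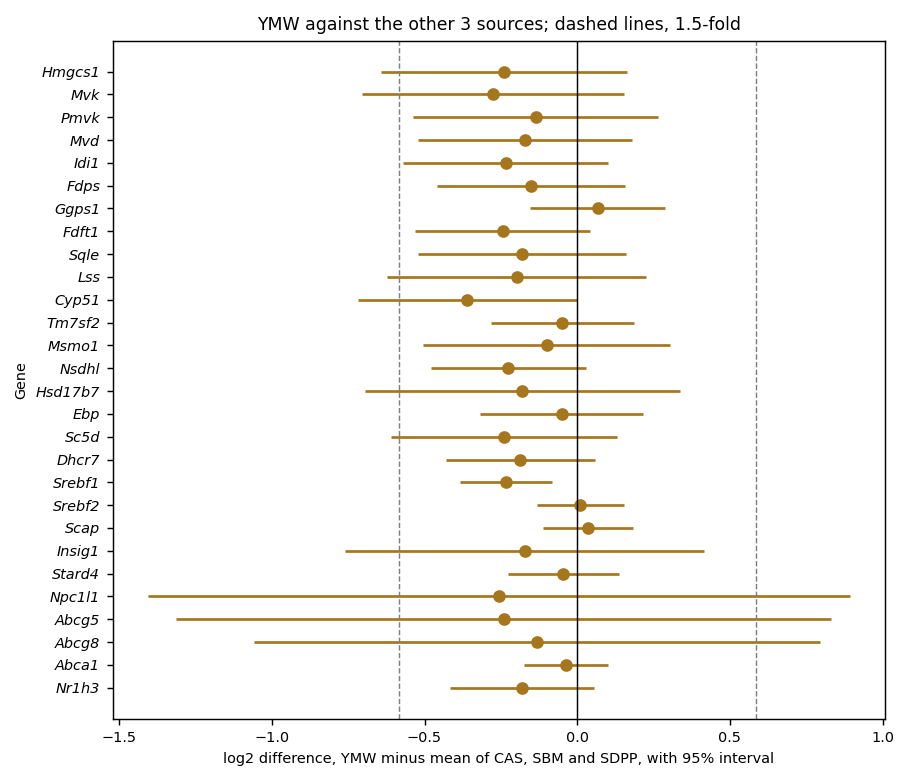
Difference between YMW and the mean of CAS, SBM and SDPP for each of the 28 genes (rows), in log2 units, with its 95% interval. 25 of the 28 points lie left of 0, and the intervals of Cyp51 and Srebf1 do not reach it.

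Srebf1 separated the sources most clearly among the 28 genes. Its 3 CAS arrays lay above the 9 other treated arrays by a mean difference of 0.26 (SE 0.07, unadjusted p = 0.00204, adjusted p = 0.320 in limma). Over all genes, the CAS arrays did not overlap the other treated arrays in 1.9%. YMW had a difference of −0.23 from the other 3 sources (SE 0.07, unadjusted p = 0.00507, adjusted p = 0.720 in limma), with some overlap. In a test of any difference among the 4 sources Srebf1 had an unadjusted p of 0.00455 and an adjusted p of 0.634 in limma, and of all genes 4.56% had an unadjusted and 0.0425% an adjusted p under 0.05. With the 12 treated arrays fitted alone, Srebf1, Mvk, Idi1, Fdft1, Cyp51 and Nsdhl had an unadjusted p under 0.05, against 6.17% of all genes. None of the 28 passed after adjustment in limma, against 0.0956% of all genes.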

How the data were processed

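Gene expression was measured in 15 cultures on Affymetrix mouse gene 1.1 ST arrays. The deposited table holds 1 intensity per probe set and array, which the authors made by RMA (background correction, quantile normalization and probe set summary; no version or annotation build is given in the sources used here) and which lies on a linear scale, from 3.02 to 10739. A log2 scale had been planned for, so log2 was taken first. Of 35556 probe sets 21218 carried 1 gene symbol in the platform annotation, 1881 several and 12457 none. Where a gene had several, the one with the highest mean stood for it, which left 18820 genes. Of the 28 genes measured, Idi1 and Scap had 2 probe sets each, and probe sets that name Fdft1 together with Ctsb were not used.

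A linear model with 5 group means was fitted to all 15 arrays in limma 3.58.1 (R 4.3.3; lmFit, contrasts.fit, eBayes with a trend). Each source was set against MC, their mean against MC, and each against the other 3. The threshold was that of the study, an unadjusted p under 0.05 with a fold change of at least 1.5, with Benjamini-Hochberg adjusted p over all genes beside it. SE and 95% intervals are from the model. Tested on simulated data for CAS against MC, with 18820 genes, 99 of 100 genes with a 2-fold change passed, as did 50 of 100 with a 1.5-fold change and 80 of 18620 with none. The simulated noise was drawn gene by gene with the same spread in all groups. It holds neither the differences between the MC arrays nor shifts shared by many genes. These rates therefore check the procedure and do not describe the real comparisons with MC. The number of arrays limits the precision, and an array has no read depth.

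Members and lists were chosen with earlier results of these data known. All members are accounted for. Values by array are given for members past the threshold with at least 1 source and for the member with the highest mean in each role. From other lists up to 3 genes past the threshold are named. Alternatives were the shape of the prior variance, a block for the replicate number, which arrays enter the fit, a second quantile normalization, centring on the median, a filter on dim genes, the mean of all probe sets, an intensity-based moderated statistic, array weights, other thresholds, each array left out and, chosen after seeing the data, MC replicate 1 as the only control. Promoter stretches are from RefSeq, GRCm38.p6.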

Additional observations from a re-analysis of the deposited data

How the results depend on the processing

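With CAS, SBM, SDPP, YMW and their mean against MC, 7, 7, 6, 16 and 10 genes passed, and each source against the other 3 gave 0 under every alternative. The counts stayed within 1.5 times of these with 1 prior variance for all genes, centring, the filter on dim genes, the mean of all probe sets and the intensity-based statistic. With a second quantile normalization 3 passed with SBM, 2 with SDPP, 9 with YMW and 5 with the mean. With the arrays of the 2 groups alone, 4 passed with SBM and 2 with SDPP. With array weights 19, 17, 18 and 19 passed with CAS, SBM, SDPP and the mean. With an adjusted p under 0.05 and no fold threshold 0 passed with each source and 1 with the mean, and with a log2 fold change above 1.5, 1 passed with CAS, 1 with YMW and 0 with SBM, SDPP and the mean. When each array was left out in turn, the counts were 2 to 19 with CAS, 0 to 17 with SBM, 1 to 19 with SDPP, 6 to 20 with YMW and 2 to 19 with the mean, the highest without MC replicate 1 and the lowest without MC replicate 2 or 3 (for SDPP also without SDPP replicate 3). Without MC replicate 1, 9.08%, 9.4%, 7.33%, 9.53% and 8.68% of all genes passed in that order. The other counts of this section stand without the share of all genes. They show how far the calls moved and do not set these genes apart.

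With MC replicate 1 as the only control, chosen after the data had been seen, 0 passed with each source and with the mean. None of the 46 fold changes past the threshold passed there, and 16 turned positive. With SBM the log2 fold change was then 0.0907 for Mvk, 0.0372 for Hsd17b7, 0.18 for Npc1l1, 0.0859 for Abcg5 and 0.11 for Abcg8. With SDPP it was 0.0248 for Lss, 0.0126 for Hsd17b7 and 0.0023 for Sc5d, and with YMW 0.0671 for Pmvk, 0.0515 for Insig1 and 0.18 for Npc1l1. With the mean it was 0.0106 for Idi1, 0.18 for Insig1, 0.37 for Npc1l1, 0.11 for Abcg5 and 0.0766 for Abcg8. No other alternative turned a direction. The cause of these shifts was not tested.

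With a replicate block, 7, 5, 6, 14 and 10 genes passed with CAS, SBM, SDPP, YMW and the mean. Same-numbered arrays of different groups deviated together with a median r of −0.16 over 30 pairs, against 0.10 over 60 pairs of other numbers, so that the numbers were not taken to pair the arrays. Under the block the adjusted p of Mvk with the mean was 0.0745 in limma, where it was 0.9998 with MC replicate 1 as the only control and 4.9e-09 to 0.410 under the rest.

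With 3 arrays a group, a gene that did not pass is not shown to be unchanged.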

Other observations

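Genes of fatty acid synthesis, the other branch of SREBP targets, were placed in different ways in the MC arrays. The mean of the 17 listed genes was 8.40 to 8.70 (log2) over the treated arrays, against 8.58, 8.66 and 8.55 in MC. Of the 17 genes, 3 lay above and 2 below the treated range in MC replicate 2, and 2 above and 3 below it in MC replicate 3. Elovl6, an elongase, had 9.59 to 10.25 over the treated arrays, against 9.84, 10.73 and 10.61 in MC, and Fads1, a desaturase, had 9.72 to 10.27, against 9.97, 9.62 and 9.10. With CAS Fads1 rose by 0.59 (SE 0.16), and with YMW Elovl6 fell by 0.64 (SE 0.21). None of the other genes of the list passed the threshold of the study with any source. Lpin1, which makes diacylglycerol from phosphatidate, had 8.05, 8.25 and 8.48 with CAS, against 7.67, 7.76 and 7.64 in MC, a log2 fold change of 0.57 (SE 0.12, adjusted p = 0.0491 in limma), under 1.5-fold. Fasn, the fatty acid synthase, had 9.16, 9.14 and 8.88 with YMW, below every other array, against 9.62, 9.53 and 9.42 in MC. Lpin1, Fasn, Scd2 and Npc1 were picked after their values were seen. The log2 fold change of Fasn with YMW was −0.46 against MC (SE 0.09, adjusted p = 0.0707 in limma), under 1.5-fold, and −0.36 against the other 3 sources (SE 0.08, adjusted p = 0.315 in limma). Scd2, a desaturase, had −0.26 against the other 3 sources (SE 0.06, adjusted p = 0.320 in limma). Of the 17 genes 13 were lower with YMW than with the other 3 sources, and 7 had an unadjusted p under 0.05, where 5.5% of all genes did. None passed that comparison after adjustment in limma.

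Npc1, whose protein releases cholesterol from lysosomes, had 8.08, 8.10 and 8.19 with CAS, against 7.65, 7.59 and 7.64 in MC, and the 3 CAS arrays lay above the 9 other treated arrays, which had 7.51 to 7.95. Its log2 fold change with CAS was 0.50 (SE 0.10, adjusted p = 0.0408 in limma), under the 1.5-fold threshold. The 3 MC arrays lay close together for this gene, unlike for the cholesterol synthesis genes.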
